A study of Mus musculus with 216 samples.

Results

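The alpha and beta defensin genes of the mouse were taken as all GENCODE vM21 genes whose symbol starts with Defa or Defb, and every H3K9me3 domain that overlapped one of their gene bodies by at least 1 bp was assigned to them. The rule found 82 genes, 39 alpha and 43 beta, out of 55450 genes in the annotation. Of these 82 genes, 21 carried a domain, each gene a different one, out of 43039 domains in all. The domains came from an H3K9me3 ChIP-seq time course in the mouse embryonic stem cell line dTKO, genotype Suv39h1fl/fl, Suv39h2-/- and Setdb1fl/fl, at 0, 1, 3, 12, 24 and 48 h of treatment with auxin (100 µg/ml in the medium) and dTAG13 (0.5 µM), which are small molecules that direct tagged proteins to degradation. All samples carry the Suv39h2 deletion and the same treatment label, the 0 h samples included, and the 0 h samples are the study's baseline. The study asked how H3K9me3 decays when the enzymes that write it are removed. The 216 sequencing runs divide evenly among H3K9me3, HP1β and their 2 inputs, 54 each, from 3 biological repeats at each of 6 times, and 1 list of H3K9me3 domains holds the outcome as a decay class in words. The classes are fast, intermediate, slow and residual. The sources used here give neither the limits between them nor how residual ranks beside slow.

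Defensins are small cationic peptides, held together by disulfide bonds between cysteines, that disrupt microbial membranes. In the mouse, alpha defensins, also called cryptdins, are made mainly by Paneth cells of the small intestine, while beta defensins are made by epithelia of the skin, airway and male reproductive tract. The genes arose by repeated duplication and sit in tandem arrays. Among the alpha genes, functional genes and pseudogenes are mixed, many with near-identical flanking sequence. H3K9me3 is the histone mark of constitutive heterochromatin; SUV39H1 and SUV39H2 write it mostly at satellite and other repeats, and SETDB1 mostly at retroviral elements and silent gene clusters. Embryonic stem cells are not known as makers of defensins, and expression of the genes was not measured here.

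The domains on alpha genes all lay over a gene start, and 6 of the 12 did so on copies of 1 upstream sequence. The starts of Defa25, Defa27, Defa28, Defa-ps1, Defa-ps6 and Defa-ps18 form 1 group by sequence, and all of these genes carried a slow domain over the start. Their upstream bases are shown from the GRCm38.p6 sequence of RefSeq, plus strand, with capitals at bases substituted or inserted relative to Defa27 in an alignment that takes a substitution before a gap; deleted bases leave no capital. Positions are chr8:21315375-21315524 for Defa27, chr8:21084270-21084420 for Defa25, chr8:21582856-21583005 for Defa28, chr8:21444898-21445047 for Defa-ps18, chr8:21694841-21694990 for Defa-ps1 and chr8:21225164-21225310 for Defa-ps6. All lie inside a slow domain and outside annotated exons.
Defa27: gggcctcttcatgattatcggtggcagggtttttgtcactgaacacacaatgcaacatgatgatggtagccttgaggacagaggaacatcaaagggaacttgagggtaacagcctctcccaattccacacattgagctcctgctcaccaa
Defa25: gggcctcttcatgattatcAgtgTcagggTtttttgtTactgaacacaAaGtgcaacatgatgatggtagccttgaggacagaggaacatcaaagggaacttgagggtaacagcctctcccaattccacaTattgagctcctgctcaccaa
Defa28: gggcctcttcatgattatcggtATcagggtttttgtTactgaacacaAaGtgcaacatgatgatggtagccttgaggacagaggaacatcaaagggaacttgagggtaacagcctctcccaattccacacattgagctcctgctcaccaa
Defa-ps18: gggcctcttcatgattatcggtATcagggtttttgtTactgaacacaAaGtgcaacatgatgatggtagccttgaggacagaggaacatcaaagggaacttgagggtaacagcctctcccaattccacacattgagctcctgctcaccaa
Defa-ps1: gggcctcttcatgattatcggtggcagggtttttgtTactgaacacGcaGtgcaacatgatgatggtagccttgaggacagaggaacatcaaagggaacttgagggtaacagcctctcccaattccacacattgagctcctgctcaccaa
Defa-ps6: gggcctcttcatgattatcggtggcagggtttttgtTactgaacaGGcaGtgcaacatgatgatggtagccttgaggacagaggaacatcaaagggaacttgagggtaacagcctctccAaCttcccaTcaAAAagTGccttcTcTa
Defa-ps1 differed from Defa27 by 3 edits, counting substituted, inserted and deleted bases, Defa28 and Defa-ps18 by 5 each, Defa25 by 7 and Defa-ps6 by 18. The Defa-ps6 differences lay mostly at the end nearest the gene.

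A different start sequence is shared by Defa2, Defa20, Defa32 and Defa33, and a near relative of it by Defa21 and Defa22. It is shown because copies with the same letters differed in whether a domain was listed over them. The windows are chr8:21378362-21378511 for Defa2, which lies in an intermediate domain, chr8:21509103-21509252 for Defa20, which lies in no domain, and chr8:21162122-21162271 for Defa22, which lies in a slow domain. Capitals mark bases that differ from Defa2.
Defa2: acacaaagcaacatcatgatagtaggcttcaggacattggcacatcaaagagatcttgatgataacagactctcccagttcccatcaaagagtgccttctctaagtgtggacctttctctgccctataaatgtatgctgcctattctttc
Defa20: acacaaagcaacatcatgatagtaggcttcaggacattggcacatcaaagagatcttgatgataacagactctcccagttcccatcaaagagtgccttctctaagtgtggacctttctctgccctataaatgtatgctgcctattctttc
Defa22: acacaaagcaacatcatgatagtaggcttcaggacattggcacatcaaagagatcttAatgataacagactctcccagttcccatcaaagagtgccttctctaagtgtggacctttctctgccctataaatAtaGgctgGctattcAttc
The windows of Defa2, Defa20, Defa32 and Defa33 were identical, and only that of Defa2 lay in a domain. Defa22 differed from Defa2 at 5 bases, and its window was identical to that of Defa21, which also lay in a slow domain.

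Domains on beta genes had other sequences. Defb35 is the only beta gene with its whole coding sequence in a domain, and the bases before its start, chr8:21938202-21938351, are shown in lower case throughout.
Defb35: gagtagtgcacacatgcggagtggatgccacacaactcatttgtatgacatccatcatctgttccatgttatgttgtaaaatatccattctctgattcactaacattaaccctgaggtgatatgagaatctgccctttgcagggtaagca
The slow and the intermediate domain with the most bases on a beta gene were those on Defb41 and Defb39. The centres of these domains, chr1:18253576-18253725 and chr8:19059076-19059225, are shown on the plus strand with capitals at bases that are not masked as repeat.
Defb41: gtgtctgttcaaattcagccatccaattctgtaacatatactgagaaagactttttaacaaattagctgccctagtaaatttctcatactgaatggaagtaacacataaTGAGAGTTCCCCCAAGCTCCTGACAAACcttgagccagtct
Defb39: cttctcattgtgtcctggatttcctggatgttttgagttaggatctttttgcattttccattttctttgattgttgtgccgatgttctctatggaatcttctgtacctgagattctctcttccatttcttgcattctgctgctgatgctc
The Defb39 stretch is masked throughout, and the Defb41 stretch holds 28 unmasked bases.

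Domains on alpha genes were nearly all slow. Of the 39 alpha genes, all on chromosome 8, 12 carried a domain (30.8%, 95% exact interval 17.0 to 47.6). Among the 12 domains, 11 were slow and 1, on Defa2, was intermediate. None was fast or residual, counts of 0 that allow a share of up to 26.5% each at the 95% level. The 2853 domains of chromosome 8 on no defensin gene were 45.2% slow, 37.2% intermediate, 17.5% residual and 0.0701% fast. The slow share on alpha genes, 91.7% (61.5 to 99.8), was thus 46.5 percentage points above that of the other domains of the chromosome. Within 5 Mb of the defensin genes of chromosome 8 the other domains were 41.5% slow, and the difference was 50.1 points. That span includes the stretch between the 2 gene clusters, described below, where 7 of 70 domains were slow. Closer by, the slow shares were higher in number, but the 45.2% of the chromosome lies inside the exact interval of each. Domains on no defensin gene were 52.4% slow in the distal cluster (36.4 to 68.0) and 66.7% in the proximal one (41.0 to 86.7). In the 1 Mb before and after the clusters, 48.1% (28.7 to 68.1) and 53.3% (26.6 to 78.7) were slow. The intervals cover counting error only, and domains on copies of 1 sequence are not independent of each other. The table has 1 class per domain and no value per sample, so depth is unknown, no value here has an error between cultures, and no test over samples could be made.

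**Figure D1:**
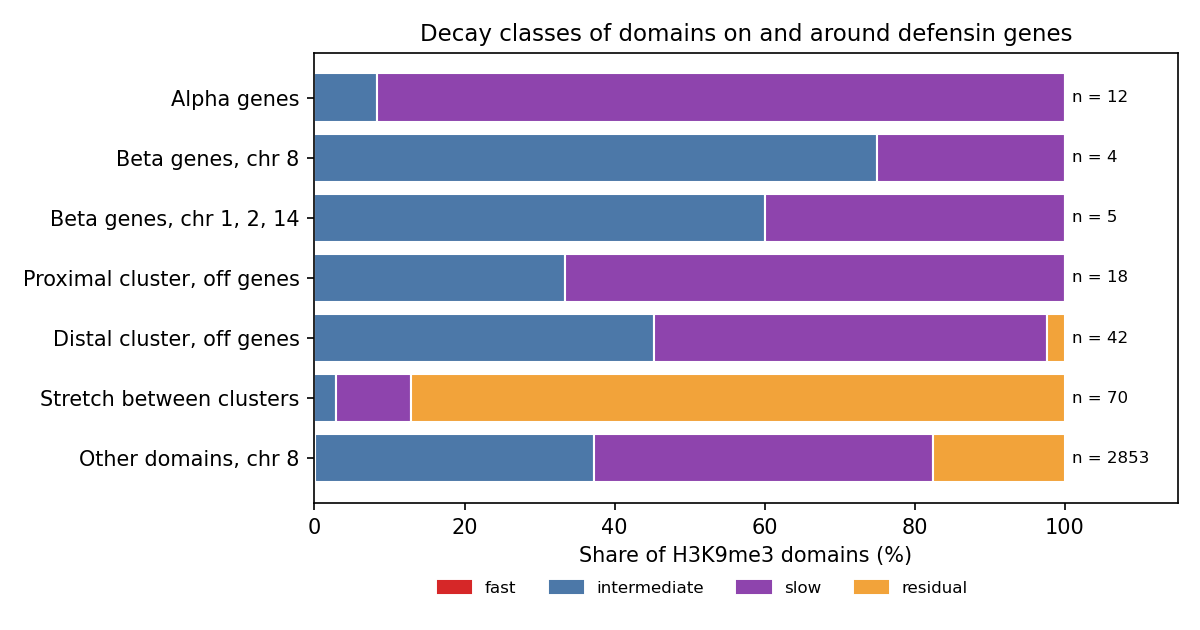
Share of H3K9me3 domains (%, horizontal axis) in each decay class for 7 sets of domains, with the number of domains beside each bar; "off genes" means domains of a cluster on no defensin gene body. The bar of alpha genes is 91.7% slow, that of beta genes on chromosome 8 is 25% slow, and that of the stretch between the clusters is 87.1% residual.

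The share of alpha genes with a domain, 30.8% (17.0 to 47.6), was above that of other short genes, which lies inside its interval. Among other genes of chromosome 8 between 0.5 and 2 kb long, 18% had a domain on the body (74 of 412). The median alpha gene is 0.956 kb long, but some lie outside that class, from 0.168 to 4.118 kb. The protein-coding ones, 0.79 to 1.134 kb long, all lie inside it, and 31.8% of them had a domain (13.9 to 54.9). Over all protein-coding genes of the genome, which are much longer, the share was 23.4%. Protein-coding and pseudogene members were alike in this count, with a domain on 7 of 22 and on 5 of 17.

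The protein-coding alpha genes with a slow domain were Defa21, Defa22, Defa25, Defa27, Defa28 and Defa30, and Defa2 was the intermediate one. The domain on Defa22, chr8:21161701-21163200, held the entire coding sequence and 95% of the gene body. Its near copy Defa21 had 92.8% of the coding sequence and 88.1% of the body inside chr8:21024901-21026400. The 2 genes are the only protein-coding alpha members with most of the gene inside a domain. For Defa28 the domain chr8:21581701-21583200 covered 61.7% of the coding bases, for Defa25 chr8:21082501-21084600 covered 57.6%, and for Defa2 chr8:21378001-21378900 covered 60.4%. Alpha defensin genes have 2 coding exons, and the domains on these 3 genes ended within the gene, at 194, 158 and 385 bases past the start. Smaller parts were covered in Defa27, 19.6% of coding bases by chr8:21313801-21315600, and in Defa30, 13.6% by chr8:21129901-21134700.

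Pseudogenes had slow domains only. Defa-ps8 lay wholly inside the longest domain on an alpha gene, 6.6 kb at chr8:21268801-21275400. The domain on Defa-ps12, chr8:19207201-19211100, was the only one on an alpha gene outside the distal cluster. Defa-ps6, Defa-ps18 and Defa-ps1 had 23.2%, 14.1% and 10.6% of their bodies inside chr8:21224101-21225600, chr8:21444001-21445200 and chr8:21693601-21695100.

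**Figure D2:**
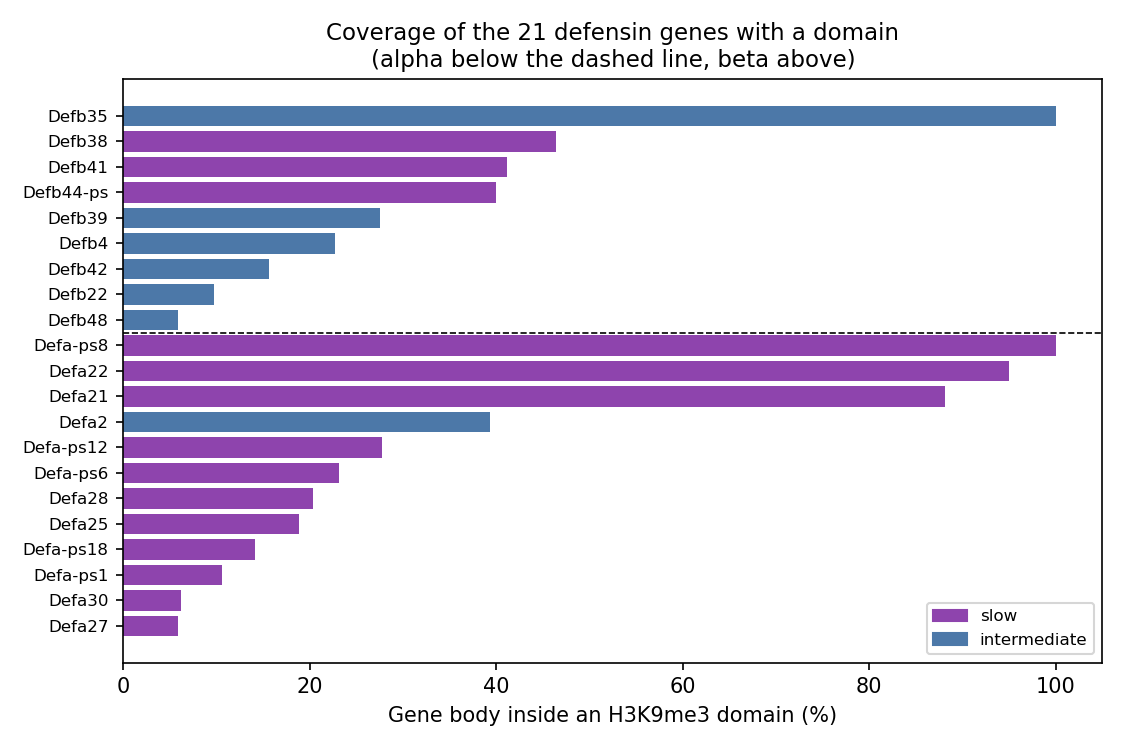
Percent of the gene body inside an H3K9me3 domain (horizontal axis) for the 21 defensin genes with a domain, coloured by decay class; alpha genes are below the dashed line and beta genes above. Coverage runs from 5.87% (Defb48) and 5.88% (Defa27) to 100% (Defa-ps8 and Defb35), and Defa2 is the only alpha gene that is not slow.

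Every one of the 12 domains on alpha genes covered the annotated gene start. Short genes meet a domain at the start more easily: of the other chromosome 8 genes of 0.5 to 2 kb with a domain, 83.8% had the start inside one (62 of 74), so the count on alpha genes is close to that of genes of like length. On beta genes of all chromosomes it was 3 of 9, namely Defb35, Defb38 and, on chromosome 14, Defb48. On chromosome 8 alone it was 2 of 4, against 35.4% of other genes there of 2 to 20 kb with a domain (70 of 198). The largest group of alpha genes whose starts were all covered was the Defa25 start group, defined by at least 90% identity of the sequence from 1500 bases before to 200 bases after the start, each gene joined through its closest copy. Its 6 genes, 3 of them protein-coding, had domains that began 1068 to 1941 bases before the start and ended 54 to 194 bases after it. Identities within the group ran from 85.9% to 97.8%, and no other alpha gene came above 71.1% to it. The gene models of Defa25 and Defa27 begin at or close to the coding start, so the distance to the transcribed start may differ between members, and domain edges lie on a grid of 300 bp.

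Among the other start groups, the Defa21 group was also covered on every gene, and the larger ones on at most 1 gene. In the Defa21 group, Defa21 and Defa22 (98.5% identical) both had slow domains, from 644 and 576 bases before the start to 855 and 923 after it. Of the 4 genes in the Defa2 group, with identities of 96.6% to 99.4%, only Defa2 had a domain. The Defa23 group had a domain on 1 of 6 genes, Defa30, although Defa23, Defa31, Defa3, Defa17 and Defa24 are protein-coding copies with identities down to 87.9%. No domain lay on the 5 genes of the Defa35 group (Defa35, Defa5, Defa36, Defa37 and Defa34), on the 5 of the Defa26 group, on Defa-ps3, Defa-ps5 and Defa-ps9, or on Defa29 and Defa-ps7. Of 6 alpha genes with a start like no other, Defa-ps8 and Defa-ps12 had a slow domain.

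**Figure D3:**
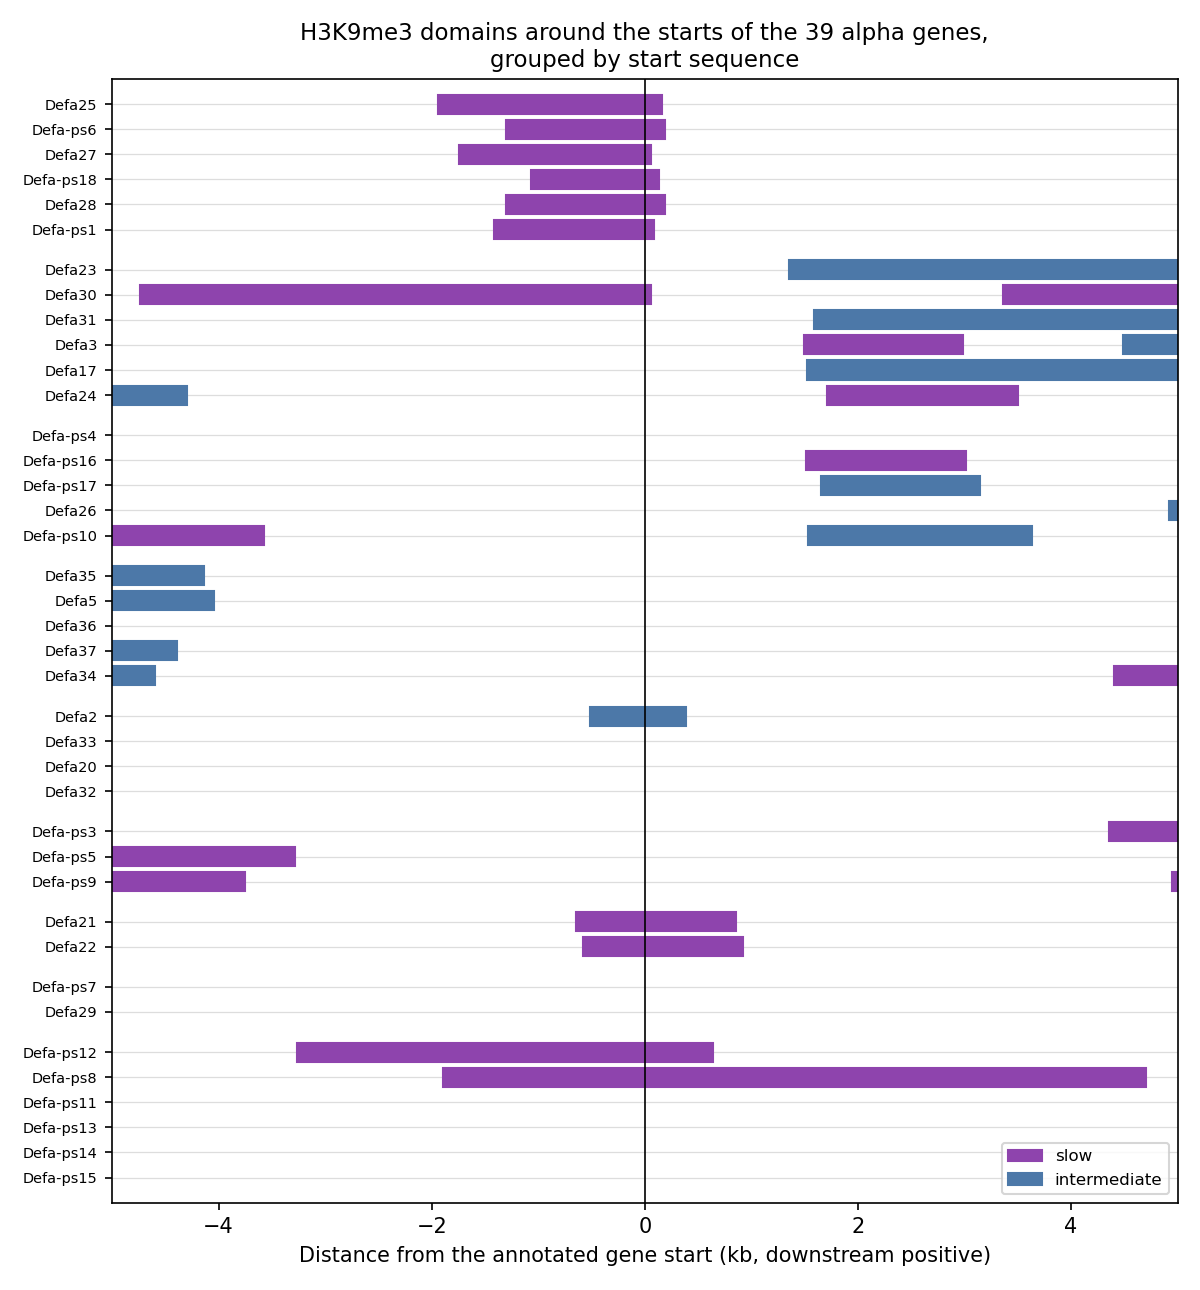
H3K9me3 domains within 5 kb of the annotated start of each of the 39 alpha genes (rows, grouped by start sequence, with the 6 ungrouped genes last); the horizontal axis is the distance from the start in kb, downstream positive. All 6 genes of the Defa25 group have a slow domain that begins 1068 to 1941 bases upstream and ends within 194 bases past the start, while copies of Defa2, Defa23, Defa26 and Defa35 mostly have none over the start.

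Near-identical copies thus differed in whether a domain was listed. The 900 bases of the Defa2 domain match Defa20 with 2 edits (99.8% identity), yet Defa20 had no domain and was the alpha gene farthest from one, at 17.3 kb. Of the 31-mers read every 100 bases of the Defa2 domain, 0% occur once in the genome; read length is not known here, and a longer read that spans an edit could have 1 place. The sources used here do not say how reads with several matches were placed, and its part in which copy was listed was not tested. The share of 31-mers found once within 1 kb of the start had a median of 13.7% in protein-coding alpha genes with a domain and 4.57% in those without. In alpha pseudogenes the order was the other way, 11.7% with a domain and 22.1% without, and the pooled medians were 13.7% and 11.7%.

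A TATAAA string, searched on both strands from 250 bases before to 50 after the start, occurred in 20 of the 39 alpha genes. By comparison, 13.6% of 32851 RefSeq promoters of that window held it. It was present in all genes of the Defa2, Defa21, Defa23, Defa29 and Defa35 groups and in 1 of 6 genes of the Defa25 group. None of the 5 genes of the Defa26 group held it, nor did Defa-ps3, Defa-ps5, Defa-ps9 or any ungrouped gene. Absence of the string was thus shared with groups that had no domain. The Defa2 and Defa22 windows printed above contain it, and the Defa27 window does not. Among alpha genes with a domain 5 of 12 had the string, and among those without 15 of 27.

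For the 27 alpha genes without a domain, the nearest one was at a median of 4.13 kb, from 0.385 kb for Defa23 to 17.3 kb for Defa20. It was within 5 kb for 16 genes. Domains are dense there, 51.1 per Mb in the distal cluster against 22.2 over the chromosome. Neither distances nor extended bodies were computed for other genes, so no closeness particular to alpha genes is shown. The nearest domain was slow for 16 genes, intermediate for 11 and residual for 0. In the Defa23 group every gene without a domain had its nearest one downstream, intermediate for Defa23, Defa31 and Defa17 and slow for Defa3 and Defa24. When bodies were extended by 5 kb to either side, 28 of 39 alpha genes met a domain and 19 of 29 such domains were slow (65.5%), a lower share than on the bodies. Stepping outward from each domain on an alpha gene to the next domain on either side, 15 of 24 neighbours were slow and 9 intermediate, at a median gap of 17.1 kb.

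Domains on beta genes were few and of both slow and intermediate class. Of the 43 beta genes, 9 carried a domain (20.9%, 95% exact interval 10.0 to 36). On chromosome 8, 4 of 24 beta genes had one (16.7%, 4.74 to 37.4), against 21.1% of other genes of 2 to 20 kb there. These 24 genes run from 0.856 to 18.6 kb, so some are shorter than that class. Defb38 was slow, with chr8:19025101-19026600 over its start and 32.3% of its coding bases. Defb39, Defb4 and Defb35 were intermediate, at chr8:19057501-19060800, chr8:19200901-19204500 and chr8:21936901-21941100. The slow share, 1 of 4 (25%, 0.631 to 80.6), differed by -20.2 points from that of the other chromosome 8 domains, whose 45.2% lies inside the interval. With bodies extended by 5 kb, 7 of 12 domains were slow (58.3%), which is above that share, so the direction rests on how much sequence around the gene is counted.

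Among these, Defb35 was wholly inside its domain, coding sequence included. Defb4, an inducible epithelial defensin, had 69.3% of coding bases inside. The Defb39 domain lay between exons and covered no coding base. It was the most repeat-rich of the 21, with 95.2% of bases masked and a median of 1398 genomic copies per 31-mer.

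On other chromosomes 5 of 19 beta genes had a domain (26.3%, 9.15 to 51.2), 2 slow and 3 intermediate. Other genes of 2 to 20 kb on chromosomes 1, 2 and 14 had one in 10.6% of cases, a share inside that interval. The 19 beta genes run from 0.698 to 15.9 kb, so some are shorter than that class. Both slow domains were on chromosome 1, on the pseudogene Defb44-ps (chr1:18213601-18219000) and on Defb41 (chr1:18250501-18256800), a gene of the epididymis. Other chromosome 1 domains were 15.9% slow and 77.9% intermediate. With 2 domains the exact interval of the slow share runs from 15.8% to 100%. On chromosome 2 the only one was intermediate, on Defb22 (chr2:152484901-152486100), whose product coats sperm, and it covered 69.6% of the coding bases. Other chromosome 2 domains were 16.9% slow and 77.3% intermediate. On chromosome 14 both were intermediate, on Defb48 (chr14:62984101-62986500), with 22.2% of coding bases inside, and on Defb42 (chr14:63056401-63058200), with none. The remaining chromosome 14 domains were 18.8% slow and 76.4% intermediate. Chromosome 8 thus had a larger share of slow domains than these 3 chromosomes, and alpha genes are compared only within it.

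The 34 beta genes without a domain had a median distance of 8.29 kb to the nearest one. Defb7 was the closest at 0.197 kb and Defb29 the farthest at 52.6 kb. Their nearest domain was slow for 13 and intermediate for 21, a count that pools chromosomes of unlike class shares. On chromosome 8 it was slow for 13 and intermediate for 7 of 20 genes. On the other chromosomes it was slow for 0 and intermediate for 14. Nearest distances in the other clusters were 6.76 kb for Defb18 on chromosome 1, 6.19 kb for Defb30 and 11.6 kb for Defb47 on chromosome 14, and 0.627 kb for Defb36 on chromosome 2. The farthest members of the chromosome 8 clusters were Defb3, at 17.8 kb in the proximal one, and Defb50, at 33.6 kb in the distal one.

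The members formed 5 clusters, runs of genes at most 1 Mb apart. On chromosome 8 the proximal cluster, chr8:18974940-19497775, holds 4 alpha and 14 beta genes, and the distal one, chr8:20892669-21948850, holds 35 alpha and 10 beta genes. Domains were dense in both. The proximal cluster had 22 domains, or 42.1 per Mb, and the distal one 54, or 51.1 per Mb, against 22.2 per Mb over the chromosome. They covered 20.9% and 20.1% of the clusters and 8.85% of the chromosome.

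Slow domains were the larger class in both chromosome 8 clusters, by a smaller margin than on alpha gene bodies. In the proximal cluster 14 were slow and 8 intermediate. The distal cluster had 32 slow, 21 intermediate and 1 residual domain. On no defensin gene, the distal cluster had 42 domains, of which 22 were slow (52.4%, 36.4 to 68.0) and 19 intermediate. Between the first and the last alpha gene of the distal cluster, domains on genes included, 27 of 43 were slow and 16 intermediate. The residual domain of the distal cluster, chr8:20944501-20949000, was 46.8 kb from Defb33, the nearest member.

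**Figure D4:**
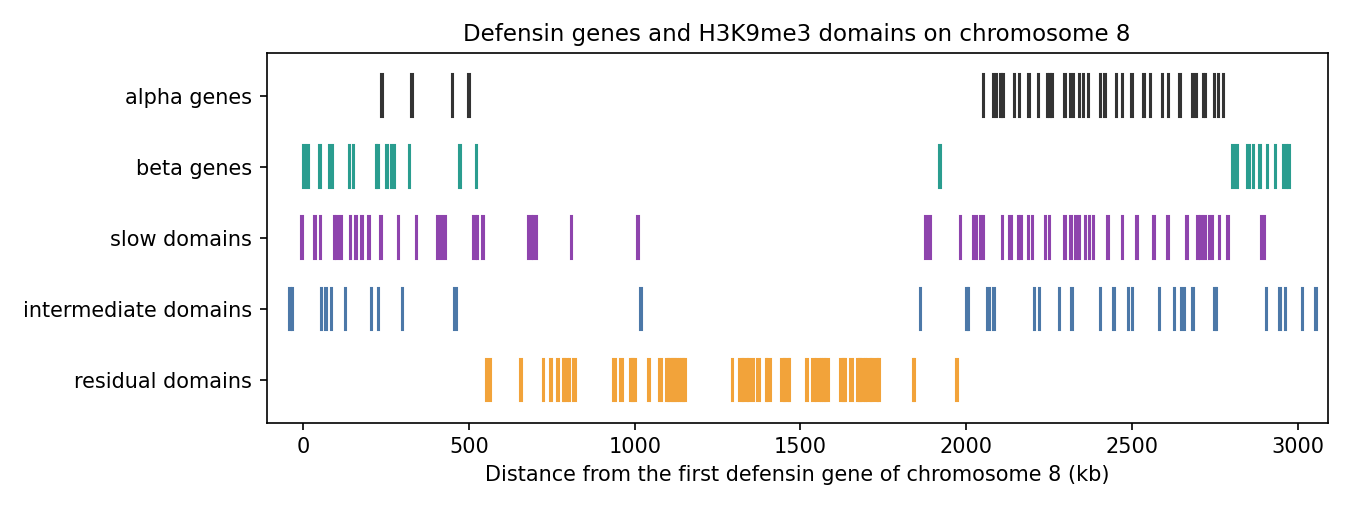
Defensin genes and H3K9me3 domains of chromosome 8 by distance in kb from the first defensin gene; each mark is a gene or domain, drawn at least 4 kb wide so that it can be seen. Both gene clusters hold slow and intermediate domains and, in the distal one, 1 residual domain, and 61 of the 70 domains in the stretch between them are residual.

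The stretch between these clusters differed from both. Over chr8:19497776-20892668, 1.39 Mb with 30 annotated genes of which 4 are protein-coding and 22 pseudogenes, 61 of 70 domains were residual (87.1%, 77.0 to 93.9), 7 slow and 2 intermediate. These 61 make up 12.2% of the 500 residual domains of the chromosome. The first began 28 kb after the last gene of the proximal cluster, and the last ended 72.4 kb before Defb33, the first gene of the distal one. Outside the clusters there were 13 slow, 11 intermediate and 3 residual in the 1 Mb before the proximal cluster and 8 slow, 7 intermediate and 0 residual in the 1 Mb after the distal one. The assembly of the stretch holds 350 kb of unknown bases, and a median of 5.38% of the 31-mers of its domains occur once in the genome. The part of copy number in these classes was not tested.

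The small clusters of beta genes had few domains each. On chromosome 1, chr1:18210053-18265138 held 3 genes and 3 domains, 2 slow and 1 intermediate, and was 27.8% covered against 6.15% of the chromosome. The chromosome 14 cluster, chr14:62977524-63058149, held 5 genes and 3 intermediate domains. On chromosome 2, chr2:152459055-152623053 held 11 genes and 2 intermediate domains, and its coverage of 1.28% was below the 4.95% of the chromosome.

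The domains on alpha genes were short, and like their locus poor in unique sequence. Their median width was 1.5 kb, from 0.9 to 6.6 kb, against 3.0 kb over the other domains of chromosome 8. A median of 13.3% of their 31-mers were unique, against 70.4%, and the median number of genomic copies was 4. Low uniqueness was shared by the rest of the distal cluster, whose 42 domains on no defensin gene had a median of 12.9% unique 31-mers and also 4 copies, while their median width was 3.6 kb and their CpG ratio 0.15. The masked share, 47.8%, was close to the 49.9% of the other domains. The observed over expected CpG ratio, a measure of how many CpG sites remain, was 0.10 against 0.21. Domains on beta genes of all chromosomes had a median width of 3.3 kb, 77.8% unique 31-mers and a CpG ratio of 0.19. Of these 9 domains, 5 lie on chromosomes 1, 2 and 14, whose other domains had medians of 55.6%, 47.9% and 45.8% unique 31-mers. The 4 on chromosome 8 had medians of 3.45 kb, 63.3% and 0.20.

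**Figure D5:**
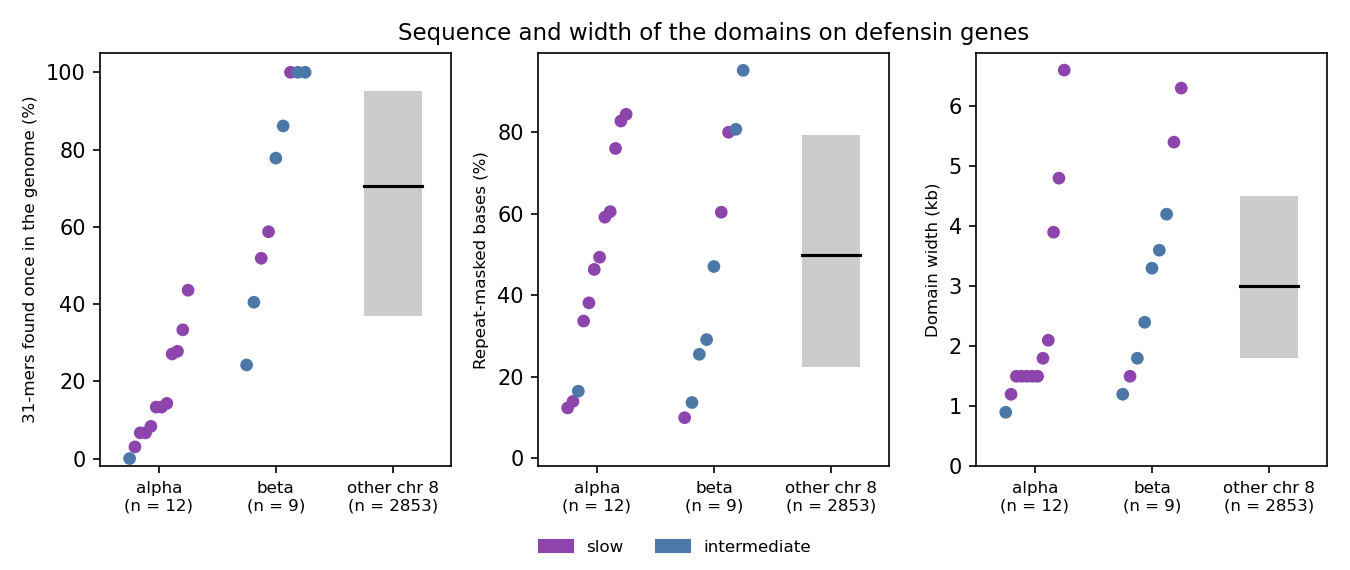
Unique 31-mers (%), repeat-masked bases (%) and width (kb) of the 12 domains on alpha and the 9 on beta genes, 1 point per domain coloured by decay class; the grey bar is the interquartile range and the black line the median of the 2853 other domains of chromosome 8. All alpha domains lie at or below 43.6% unique 31-mers, while beta domains run from 24.2% to 100%.

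Other chromosome 8 domains with as few unique 31-mers were of mixed class. Of the alpha domains, 8 had under 20% unique 31-mers, 7 of them slow, and 4 had 20% to 50%, all slow. Among the 318 other domains of the chromosome with under 20% unique 31-mers, 23.0% were slow, 55.7% intermediate and 21.1% residual. These 318 are alike in unique share only. Their medians were 94.2% masked bases and 582 copies per 31-mer, against 47.8% and 4 for alpha domains. They also take in most domains of the stretch between the clusters, where 61 of 70 were residual. Of the 695 with 20% to 50%, 65.9% were slow. The 984 other domains of at most 2.1 kb were 37.3% slow, and the 1223 on bodies of other genes were 41.8% slow and 23.9% residual. Each of these slow shares was below the 91.7% on alpha genes, but the 65.9% lies inside its exact interval of 61.5 to 99.8, and the 12 alpha domains include 6 copies of 1 start sequence.

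Other genes of antimicrobial and mucosal defence were looked at by the same rule. Of 55 listed genes, 10 had a domain (18.2%), with 7 intermediate, 3 slow, 2 residual and 0 fast domains. Over all protein-coding genes, which are longer (median 17.4 against 5.96 kb), 23.4% had one, so the listed genes show no excess. Of all 43039 domains, 30733 were intermediate, 8801 slow, 1999 residual and 1506 fast. The slow ones were on Lyz1, the lysozyme of Paneth cells, on Itln1, an intestinal lectin, and on Fcgbp, a mucus protein that also had an intermediate domain. Muc2, the main intestinal mucin, had a residual domain, and Nod2, a sensor of bacterial peptidoglycan, had a residual and an intermediate one. The others, Ang4, Dmbt1, Pglyrp3, Pla2g5 and Slpi, had intermediate domains only. These genes lie on several chromosomes whose class shares differ, so their counts are not compared with those of the defensins.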

How the data were processed

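H3K9me3 and HP1β ChIP-seq with matched inputs was done in dTKO mouse embryonic stem cells. Of these data, the authors' deposited table of H3K9me3 domains was used; it gives a position and a decay class in words per domain, a value that has no numeric unit, and it has 0 columns of sample values. The submitters' processing notes list bedtools, deepTools, SAMtools 1.1 and Bowtie2 2.3.4.1, with GRCm38, mm10, mm9 and dm6 as builds. Not given in the sources used here are the domain caller, the handling of reads with several matches, the spike-in scaling and the class limits. Signal tracks, reads and HP1β were not analysed here. Slow and residual share 1 display colour in the table, so classes were read from the words.

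Coordinates (mm10, printed 1-based) were compared with GRCm38.p6 over 21 chromosomes, and 0 domains ran past an end. Genes are from GENCODE vM21. An overlap needed 1 bp. 31-mers were read every 100 bp of a domain, or every 10 bp around gene starts, and counted in the genome on both strands. The overlap code was tested on simulated data. Intervals are 95% exact Clopper-Pearson intervals. Every member with a domain is named, as are the closest and farthest member without one per cluster and the listed host defence genes with a domain; sequences are printed for the 2 members with all coding bases in a domain and for the domain with the most bases on a gene in each class, and the start groups and their sequences were added after their values were seen. The members, gene list and comparisons were chosen with earlier results of these data known. Software was pandas 2.3.3 and numpy 2.4.6 for tables, numba 0.67.0 for 31-mers, edlib 1.3.9 for alignments, scipy 1.17.1 for intervals and matplotlib 3.10.9 for figures, in Python 3.11.15.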

Additional observations from a re-analysis of the deposited data

How the results depend on the processing

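Among alternative settings, the slow share of alpha domains reached 100% in 3 settings, namely domains with 50% or more of their length in gene bodies (2 of 2), domains with the midpoint in one (2 of 2), and domains of at least 1.2 kb (11 of 11). Alpha genes with a domain numbered 3 where 50% of the body had to be covered, 28 with bodies extended by 5 kb, and 7 of 22 when only protein-coding genes were taken. Beta genes with a domain numbered 1 and 19 under the first and second of these. The other 36 values stayed within the exact interval or within 1.5 times the count, or were cluster shares that a limit of 250 kb between genes left identical. These intervals are wide. The slow share of alpha domains fell to 65.5% with bodies extended by 5 kb (19 of 29), which is still inside its interval. The slow share of beta domains on chromosome 8 ran from 11.9% by covered length to 58.3% with extended bodies. Gene bodies from RefSeq, an alternative chosen after seeing the data, gave a domain on 12 of 40 alpha and 9 of 43 beta genes. RefSeq has 6 alpha symbols that GENCODE vM21 does not use, and none of these genes had a domain. The Defa25 start group, also formed after seeing the data, held 6 of 6 genes with a domain at 85% identity and 4 of 4 at 95%. No paired analysis was possible because the table has no values per sample. Counts rest on 12 alpha and 9 beta domains.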
